A study of Arabidopsis thaliana with 6 samples.

Results

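The 9 abscisic acid receptor genes PYR1, PYL1, PYL2, PYL4, PYL5, PYL6, PYL7, PYL8 and PYL9 of Arabidopsis thaliana were followed in shoots of sme1-1 plants and of wild-type Col-0 plants. They were taken as a family by locus identifier, with earlier results of these data known, and make up 9 of the 37869 genes and 14 of the 76209 transcripts measured. Each genotype had 3 libraries. The sme1-1 line is in the Col-0 background and carries a mutation in SME1 (AT2G18740). This gene encodes an SmE protein of the ring at the core of spliceosomal snRNPs. The labels of these samples write smeb-1, and their titles begin with KO. Beyond that abbreviation, the sources used here do not state what kind of allele it is. The wild type is Col-0. Plants of both genotypes grew in vitro on sucrose medium in long days for 3 weeks, and their shoots were harvested without any stress treatment. The mutant is represented by 1 line, and nothing in the labels states that its libraries are separate batches of plants or how many plants went into each. The p-values therefore describe the scatter of these particular libraries, which may be technical. All levels are TPM, a transcript abundance which is scaled for length and sums to 1000000 in every library; the sequencing depth behind a value is therefore unknown.

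Abscisic acid (ABA) is the hormone that plants make in drought, salt stress and seed maturation. A PYR/PYL receptor that has bound ABA closes over the active site of a clade A type 2C protein phosphatase (PP2C) and inhibits it. This frees SnRK2 kinases, which then phosphorylate bZIP transcription factors of the ABF group as well as the guard cell anion channel SLAC1 and the oxidase RBOHF. PYR1, PYL1 and PYL2 form homodimers in the absence of ABA, while PYL4 to PYL9 are mostly monomers. In Arabidopsis, applied ABA is known to raise the transcripts of clade A PP2Cs and to lower those of several receptors.

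The 9 genes have distinct structures on the TAIR10.1 assembly, where the ends of all 9 in RefSeq equal those in the deposited annotation. PYR1 (AT4G17870, chr4:9928587-9929875, plus strand), PYL2 (AT2G26040, chr2:11094258-11095542, minus), PYL4 (AT2G38310, chr2:16049918-16051356, plus), PYL5 (AT5G05440, chr5:1608988-1610527, plus) and PYL6 (AT2G40330, chr2:16844588-16846194, minus) have no intron. PYL1 (AT5G46790, chr5:18983540-18984923, minus) has 1 annotated intron, which lies after its coding region. PYL7 (AT4G01026, chr4:446978-448511, plus), PYL8 (AT5G53160, chr5:21560601-21562709, plus) and PYL9 (AT1G01360, chr1:141870-143261, plus) each have 2 introns inside the coding region. The full-length reading frames run from 187 codons in PYL9 to 221 codons in PYL1. The closest coding sequences among the members were PYL7 and PYL9, identical at 72.2% of aligned bases with a longest shared run of 32 bases, and reads were 150 bp paired ends.

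The intron 2 donor sites of PYL7, PYL8 and PYL9 show how alike these genes are at the exon border. They are printed here because the only receptor transcripts with altered reading frames in the deposited annotation hold an intron of PYL7 or PYL8. Each line gives 6 exon bases, then the start of the intron, with its first 2 bases in capitals.
PYL7 intron 2 donor: cttaagGTgactaa
PYL8 intron 2 donor: cttaagGTaatcaa
PYL9 intron 2 donor: cttaagGTacagcg
The 6 exon bases were identical in all 3 genes, and all 3 introns begin with GT. The PYL1 intron, as annotated, instead begins with AT and ends with AC, as in gataacATactaat at its start and acaggaatgataACatacta at its end, where the capitals mark its first and last 2 bases. The letters around both borders repeat each other, so the sequence alone does not fix where the intron ends lie.

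SME1 was lower in every library labelled as mutant. It had 36.1, 31.6 and 29.7 TPM in sme1-1 libraries, against 76.9, 73.9 and 75.3 TPM in wild-type libraries, so the line keeps SME1 transcript at a lower level (log2 change of -1.19, limma adjusted p = 4.36e-05). Between 20344 and 20580 genes reached 1 TPM in sme1-1 libraries and between 18827 and 18997 in wild-type libraries. Across genes, log2 levels correlated at 0.982 or more among sme1-1 libraries, at 0.985 or more among wild-type libraries and at 0.855 to 0.903 across genotypes, and no library stood apart from its group. The median of all tested genes lay at a log2 change of 0.22 on the deposited values, at -0.03 once scaled by median of ratios and at -0.06 on quantile-normalized values. This shift bears on the small changes given below.

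Markers of cell types that a shoot sample can hold also moved. In bulk tissue, fewer cells of a type and less RNA per cell cannot be told apart, for these markers as for the receptors. The summed TPM of 4 shoot markers ranged from 23908 to 26933 in sme1-1 libraries and from 24284 to 25543 in wild-type libraries, so the labelled tissue was present in all of them. Of 5 guard cell markers, 4 fell and 0 rose (limma on log2(TPM + 1), adjusted over all tested genes, threshold 0.05) on the deposited values and 5 fell under either other scaling, where 20.0%, 35.3% and 36.3% of all tested genes were called lower on the deposited values, under median-of-ratios scaling and under quantile normalization. Their sum ranged from 83.0 to 113.3 TPM in sme1-1 libraries and from 233.1 to 249.8 TPM in wild-type libraries. GC1 took most of that sum, with 65.6 ± 15.5 TPM in sme1-1 and 187.5 ± 3.07 TPM in wild type (SD, n = 3 each). Of 7 root markers 6 were tested, and 6 rose on the deposited values, 5 under median-of-ratios scaling and 4 under quantile normalization, where 47.3%, 32.0% and 30.4% of all tested genes were called higher. Their sum ranged from 25.1 to 50.0 TPM in sme1-1 libraries and from 1.74 to 4.37 TPM in wild-type libraries, of which IRT1, an iron transporter gene that also responds to iron supply, averaged 18.03 ± 5.98 TPM in sme1-1 and 0.645 ± 0.381 TPM in wild type. All 6 tested root markers averaged under 1 TPM in wild type. They passed the filter, a mean of at least 1 TPM over the 6 libraries, only through sme1-1. The count of root markers that rose was therefore largely set by the filter and cannot be weighed against the shares of all tested genes. Of 5 floral markers 3 were tested and 1 rose on the deposited values, where 47.3% of all tested genes were called higher. This count is not above the background. The gene called, SEP3, averaged 1.78 TPM in sme1-1 and 0.763 TPM in wild type. It passed the filter only through sme1-1, and its call was lost under quantile normalization. The sum of the 5 floral markers ranged from 6.34 to 8.69 TPM in sme1-1 libraries and from 3.20 to 5.12 TPM in wild-type libraries. No marker was at 0 in every library. The part of these cell types in the receptor levels was not tested.

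Of the 9 receptors, 6 were lower in the mutant. PYR1, PYL1, PYL4, PYL5, PYL6 and PYL8 fell in sme1-1 shoots, PYL2 and PYL7 rose on the deposited values but not under median-of-ratios scaling, and PYL9 did not pass the test (limma on log2(TPM + 1), Benjamini-Hochberg adjusted over 20100 genes, threshold 0.05). That is 6 of 9 members lower, where 20.0% of all tested genes were called lower, and 2 of 9 higher, where 47.3% were called higher and 67.3% were called in either direction. Under median-of-ratios scaling 35.3% of all tested genes were called lower and 32.0% higher, and under quantile normalization 36.3% were called lower and 30.4% higher. All 9 members passed the filter of a mean of at least 1 TPM over the 6 libraries. Their median log2 change was -1.29, where that of all tested genes was 0.22. The 6 falls passed the test under median-of-ratios scaling, under quantile normalization and with any 1 library left out. The rise of PYL2 was also lost under quantile normalization, where its sign turned. Of the 9 members, 5 fell by at least 2-fold on the log2(TPM + 1) scale, against 4.74% of all tested genes. Libraries of the 2 genotypes did not overlap for 8 of the 9 members, against 73.5% of all tested genes.

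**Figure D1:**
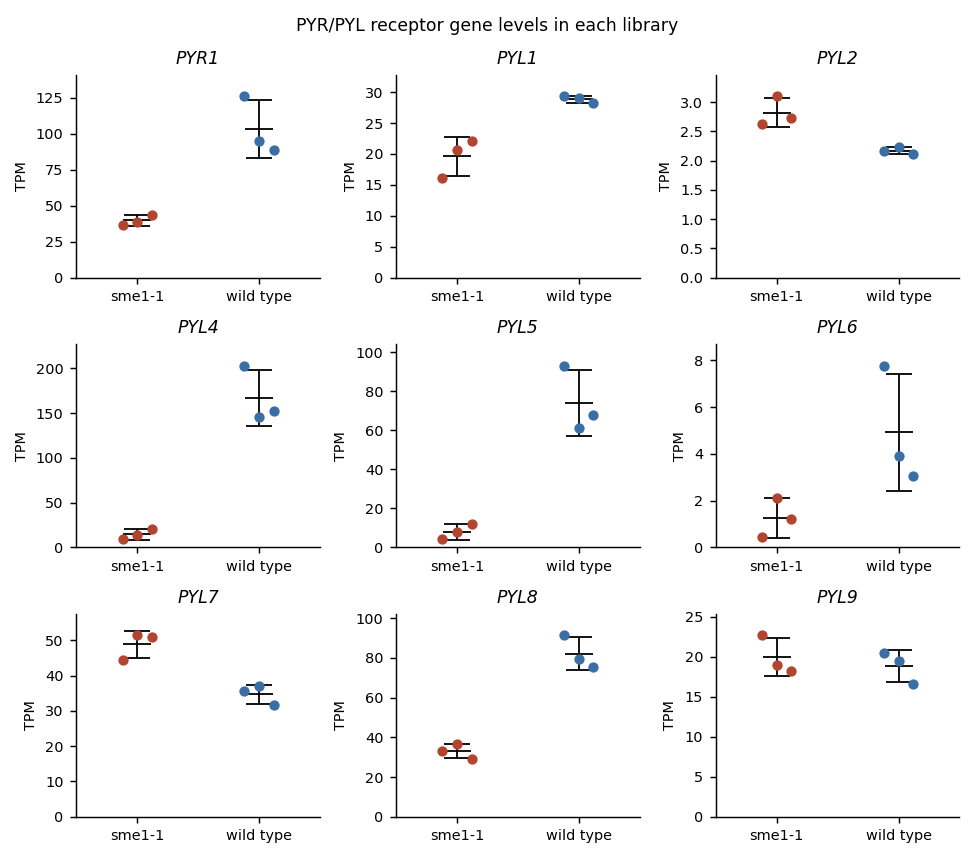
Levels of the 9 receptor genes (TPM, a separate axis from 0 for each gene) in the 3 sme1-1 and the 3 wild-type libraries; each point is 1 library, and the lines give the mean and 1 SD on either side. For PYL4 the sme1-1 points lie between 9.03 and 20.9 TPM and the wild-type points between 145.1 and 202.9 TPM, and among the 9 genes only the points of PYL9 overlap.

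The monomeric receptors PYL4, PYL5 and PYL6 each fell, and their summed TPM was 90.4% lower in sme1-1, against 53.7% lower for PYR1, PYL1 and PYL2 and 24.9% lower for PYL7, PYL8 and PYL9. PYL4, which in wild type had the highest level of the family, had 9.03, 13.8 and 20.9 TPM in sme1-1 libraries, against 202.9, 145.1 and 152.0 TPM in wild-type libraries. Its highest mutant library was far below its lowest wild-type library. PYL4 averaged 14.6 ± 5.95 TPM in sme1-1 and 166.6 ± 31.6 TPM in wild type (SD, n = 3 each), which is 91.3% lower, and the log2 change was -3.49 ± 0.28 (SE; limma adjusted p = 8.84e-05).

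PYL5 followed the same pattern at a lower level. It had 4.05, 7.61 and 11.8 TPM in sme1-1 libraries, against 93.0, 61.0 and 67.6 TPM in wild-type libraries. Its mean was 7.82 ± 3.88 TPM in sme1-1 and 73.8 ± 16.9 TPM in wild type (SD, n = 3 each), 89.4% lower, and the log2 change was -3.16 ± 0.34 (SE; limma adjusted p = 0.000253). Across the 6 libraries the log2 levels of PYL4 and PYL5 correlated at 0.998; these libraries share the difference between genotypes.

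PYL6, which is known to bind the jasmonate transcription factor MYC2, was the least abundant of the 3. It had 0.434, 2.12 and 1.21 TPM in sme1-1 libraries, against 7.77, 3.90 and 3.07 TPM in wild-type libraries. The groups did not overlap, although the spread within each was wide. The means were 1.25 ± 0.842 TPM in sme1-1 and 4.91 ± 2.51 TPM in wild type (SD, n = 3 each), and the log2 change was -1.38 ± 0.37 (SE; limma adjusted p = 0.0143).

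PYL4, PYL5 and PYL6 together held 13.5, 23.5 and 33.9 TPM in sme1-1 libraries, against 303.6, 210.0 and 222.6 TPM in wild-type libraries. One library of each genotype was at the edge of its group for most of the family. Replicate 1 was the lowest sme1-1 library for 7 of the 9 receptors, and replicate 1 was the highest wild-type library for 7 of the 9. How often this held over all tested genes was not counted. Several receptors are also correlated (0.986 for PYL4 and PYR1), so these counts do not rest on independent genes. Without sme1-1 replicate 1 the log2 changes of PYL4, PYL5 and PYL6 were -3.20, -2.81 and -1.09, and without wild-type replicate 1 they were -3.34, -2.99 and -1.06, each with a limma adjusted p under 0.05.

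Among the receptors that form homodimers, PYR1 and PYL1 fell, while the call of PYL2 as higher depended on the scaling. PYR1, the receptor found through the synthetic ABA agonist pyrabactin, had 36.6, 38.9 and 43.8 TPM in sme1-1 libraries, against 126.1, 95.3 and 88.6 TPM in wild-type libraries. No mutant library reached the level of any wild-type library. PYR1 averaged 39.8 ± 3.68 TPM in sme1-1 and 103.3 ± 20.02 TPM in wild type (SD, n = 3 each), and the log2 change was -1.34 ± 0.14 (SE; limma adjusted p = 0.000231).

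PYL1, the closest relative of PYR1, fell less. It had 16.1, 20.7 and 22.1 TPM in sme1-1 libraries, against 29.3, 29.1 and 28.2 TPM in wild-type libraries. The wild-type libraries were nearly equal, and all mutant libraries lay below them. The means were 19.6 ± 3.16 TPM in sme1-1 and 28.9 ± 0.566 TPM in wild type (SD, n = 3 each), and the log2 change was -0.55 ± 0.11 (SE; limma adjusted p = 0.00504).

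PYL2 was the least abundant member in wild type. It had 2.62, 3.10 and 2.73 TPM in sme1-1 libraries, against 2.17, 2.23 and 2.11 TPM in wild-type libraries. The groups did not overlap, but the difference was about the size of the shift of the median gene. Its log2 change of 0.27 (limma adjusted p = 0.0358) became 0.07 under median-of-ratios scaling (adjusted p = 0.515, limma) and -0.26 under quantile normalization (limma adjusted p = 0.0546). The call was also lost when sme1-1 replicate 2 or 3 or any of the 3 wild-type libraries was left out, with limma adjusted p values of up to 0.0933. PYL2 therefore has no direction here that holds under these settings.

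Of the receptors with introns in the coding region, PYL8 fell, PYL7 was called higher on the deposited values but not under median-of-ratios scaling, and PYL9 was not called. PYL8, known for its part in ABA signalling during root growth and for interacting with MYB77, had 33.3, 36.6 and 29.2 TPM in sme1-1 libraries, against 91.3, 79.6 and 75.3 TPM in wild-type libraries. Both groups were tight and far apart. PYL8 averaged 33.0 ± 3.70 TPM in sme1-1 and 82.1 ± 8.26 TPM in wild type (SD, n = 3 each), and the log2 change was -1.29 ± 0.10 (SE; limma adjusted p = 9.08e-05).

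PYL7 was higher in the mutant on the deposited values. It had 44.5, 51.4 and 50.8 TPM in sme1-1 libraries, against 35.6, 37.0 and 31.7 TPM in wild-type libraries, and the groups did not overlap. The means were 48.9 ± 3.82 TPM in sme1-1 and 34.7 ± 2.73 TPM in wild type (SD, n = 3 each), and the log2 change was 0.48 ± 0.08 (SE; limma adjusted p = 0.00224). Under median-of-ratios scaling the change was 0.22 and did not pass (limma adjusted p = 0.0763), while after quantile normalization it was 0.39 and passed (limma adjusted p = 0.00691). PYL7 overlaps the antisense genes AT4G03845 and AT4G01030 by 269 and 764 bases and AT4G01023 on its own strand by 3 bases. No overlapping gene exceeded 2.77 TPM in any library. The kit keeps strand, but whether the quantification used it is not stated, so reads of the overlaps cannot be assigned with certainty.

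PYL9, whose overexpression is known to promote leaf senescence under drought, did not differ beyond the spread between libraries. It had 22.7, 19.0 and 18.2 TPM in sme1-1 libraries, against 20.4, 19.4 and 16.6 TPM in wild-type libraries. The log2 change was 0.08, with a 95% interval from -0.18 to 0.34 (limma adjusted p = 0.539), so a change of the size seen in PYL8 lies outside the interval. Its sign turned to -0.18 under median-of-ratios scaling and to -0.10 under quantile normalization, neither past the threshold.

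**Figure D2:**
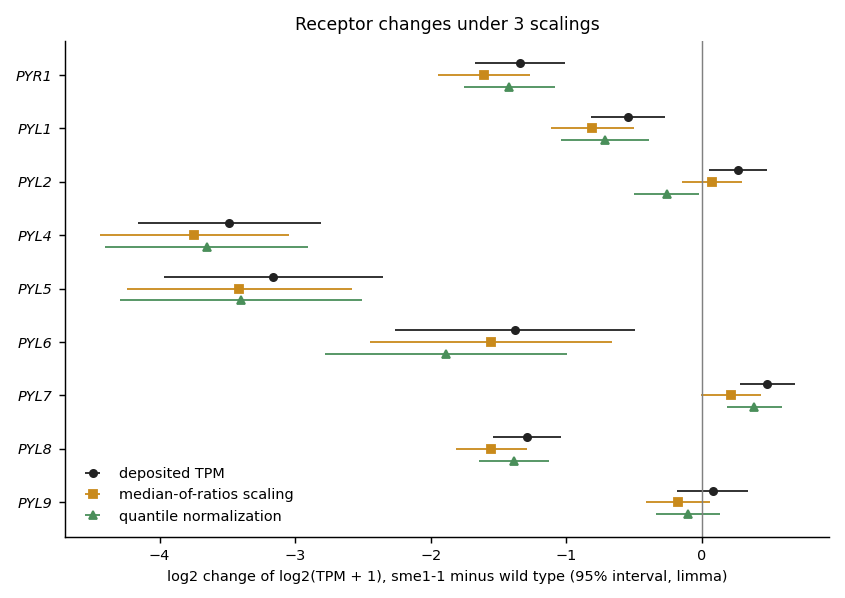
Log2 change (sme1-1 over wild type, log2(TPM + 1)) of the 9 receptors on the deposited values and under both other scalings, median-of-ratios and quantile, with 95% intervals from limma. The 6 falls stay below 0 under all 3 scalings, from -3.75 for PYL4 to -0.55 for PYL1, while PYL2, PYL7 and PYL9 lie between -0.26 and 0.48.

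The other 5 genes of the family stayed under a mean of 1 TPM over the 6 libraries and were not tested. PYL3 averaged 0.481 TPM in sme1-1 while every wild-type library listed it at 0. PYL11 averaged 0.387 TPM in sme1-1 and 0.138 TPM in wild type, and PYL12 averaged 0.433 TPM in sme1-1 and 0.0187 TPM in wild type. PYL11 and PYL12 are identical at 84.4% of aligned coding bases, with a longest shared run of 37 bases, against reads of 150 bp. How far reads were split between them was not tested. PYL10 averaged 0.0405 TPM in sme1-1 and 0.0622 TPM in wild type. PYL13, known to inhibit certain PP2Cs without ABA, averaged 0.0256 TPM in sme1-1 and was listed at 0 in wild type.

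The make-up of the receptor pool differed between the genotypes. By mean TPM, which is per length, the order in sme1-1 was PYL7, PYR1, PYL8, PYL9, PYL1, PYL4, PYL5, PYL2 and PYL6. The ranges of PYL9 and PYL1, of PYL1 and PYL4 and of PYL4 and PYL5 overlapped in the mutant, so those neighbours are not separated. In wild type the order was PYL4, PYR1, PYL8, PYL5, PYL7, PYL1, PYL9, PYL6 and PYL2, with overlapping ranges for PYR1 and PYL8 and for PYL8 and PYL5. PYL7 was first in sme1-1 and the fifth in wild type.

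As shares of the summed TPM of the 9 receptors, PYL4, PYL5 and PYL6 held 12.3 ± 4.45% in sme1-1 and 47.4 ± 2.76% in wild type (SD, n = 3 each). PYL7, PYL8 and PYL9 held 54.6 ± 5.27% in sme1-1 and 26.5 ± 2.29% in wild type. PYR1, PYL1 and PYL2 held 33.1 ± 0.961% in sme1-1 and 26.1 ± 0.628% in wild type. A share falls or rises with the levels of the other members, and the share of PYR1 was close in both genotypes (21.2% in sme1-1 and 19.98% in wild type) although its level fell. These sums include members chosen as a family and were not tested.

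Summed receptor transcripts were lower in the mutant and summed transcripts of their phosphatase targets were higher. The 9 receptors summed to 169.4, 193.2 and 200.8 TPM in sme1-1 libraries, against 608.6, 472.6 and 465.2 TPM in wild-type libraries. The 9 clade A PP2C genes summed to 577.6, 444.2 and 548.7 TPM in sme1-1 libraries, against 146.8, 155.4 and 187.2 TPM in wild-type libraries. Receptor transcripts outnumbered phosphatase transcripts in every wild-type library and were fewer in every mutant library. The ratio of receptor to PP2C TPM was 0.365 ± 0.0709 in sme1-1 and 3.22 ± 0.845 in wild type (SD, n = 3 each). This is a ratio of transcripts within a library, which a common scaling of the library leaves as it is, and it says nothing of protein amounts.

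**Figure D3:**
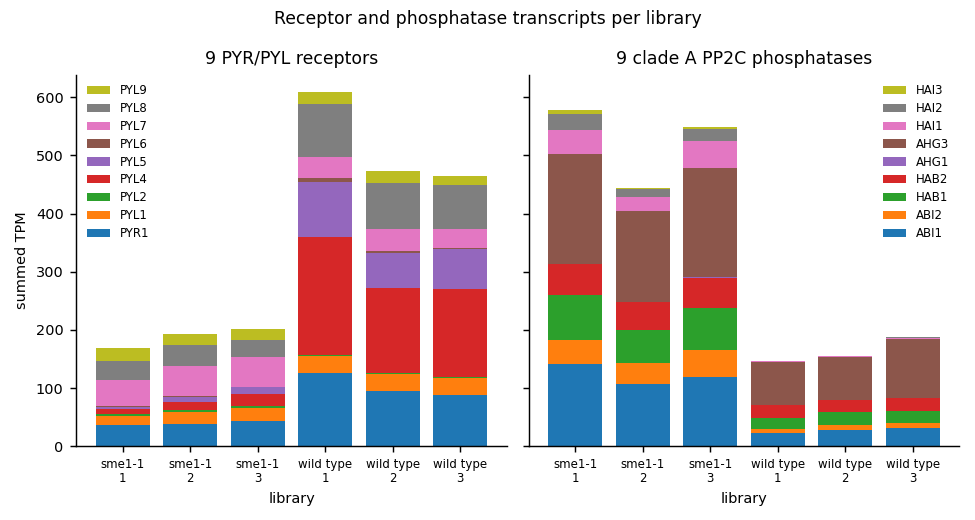
Summed TPM of the 9 receptors (left) and of the 9 clade A PP2C genes (right), 1 stacked bar for each of the 3 sme1-1 and the 3 wild-type libraries, with a colour for each gene. In sme1-1 the phosphatases lie between 444.2 and 577.6 TPM and the receptors between 169.4 and 200.8 TPM, and in wild type the receptors are the higher of the 2 sums.

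Only PYL1, PYL7 and PYL8 have more than 1 transcript in the deposited annotation. Of the 14 receptor transcripts, 11 come from Araport11 and 3 were assembled with scallop, and 13 reached a mean of 1 TPM. At the transcript level 7 were lower and 2 were higher, where 14.5% of 39381 tested transcripts were called lower, 29.1% higher and 43.6% in either direction (limma). The 7 lower ones were the main transcripts of PYR1, PYL1, PYL4, PYL5 and PYL6 and both Araport11 transcripts of PYL8. The call of the PYL6 transcript (limma adjusted p = 0.0231) was lost without sme1-1 replicate 1 or 3 or wild-type replicate 1, with limma adjusted p values of up to 0.063. The second PYL1 transcript, AT5G46790.1, averaged 0.157 TPM in sme1-1 and 0.0896 TPM in wild type and was not tested.

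PYL8 has 2 abundant transcripts in the annotation, which differ by intron 2, an intron of 80 bases, and also in where they begin and end. AT5G53160.2 splices it out and encodes 188 codons, while AT5G53160.1 keeps it, and its frame then ends after 157 codons at a stop codon downstream of the intron. The stretch below runs over chr5:21561649-21561780 of TAIR10.1 on the plus strand, from the last 12 bases of exon 2 to that stop codon, with the intron ends and the stop codon in capitals. It is shown because the coding difference between the 2 PYL8 transcripts arises here.
PYL8 intron 2: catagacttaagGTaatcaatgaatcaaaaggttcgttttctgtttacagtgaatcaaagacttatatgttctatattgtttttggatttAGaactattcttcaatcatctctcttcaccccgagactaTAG

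Both PYL8 transcripts fell in the mutant. AT5G53160.2, the full-length form, had 15.6, 23.1 and 19.7 TPM in sme1-1 libraries, against 54.6, 35.4 and 36.6 TPM in wild-type libraries, a log2 change of -1.07 (limma adjusted p = 0.00512). AT5G53160.1, the form with the intron, had 16.9, 12.7 and 8.88 TPM in sme1-1 libraries, against 35.4, 41.6 and 37.5 TPM in wild-type libraries, a log2 change of -1.54 (limma adjusted p = 0.00121). Neither transcript had overlapping groups. The share of transcripts that retain intron 2 was 38.7 ± 10.7% in sme1-1 and 46.9 ± 7.15% in wild type (SD, n = 3 each), with single libraries from 30.4% to 50.7% in sme1-1 and from 38.8% to 52.2% in wild type. These shares compare whole transcripts, whose ends differ too. The ranges overlap, and the retention ratio changed by -0.50 on the log2 scale with a 95% interval from -1.46 to 0.46 (limma adjusted p = 0.473).

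PYL7 has 1 full-length and 2 assembled transcripts. AT4G01026.1, with 211 codons, had 34.1, 42.2 and 42.8 TPM in sme1-1 libraries, against 30.2, 30.3 and 26.4 TPM in wild-type libraries, a log2 change of 0.44 (limma adjusted p = 0.0163). TCONS_00034080, which keeps intron 2, had 6.63, 6.39 and 5.52 TPM in sme1-1 libraries, against 4.41, 4.16 and 3.36 TPM in wild-type libraries, a log2 change of 0.53 (limma adjusted p = 0.019). Both calls were lost under median-of-ratios scaling, where the log2 changes were 0.21 and 0.34. Leaving out sme1-1 replicate 2 or 3 also ended that of AT4G01026.1, and leaving out sme1-1 replicate 1 or 2 that of TCONS_00034080 (limma adjusted p up to 0.0603). The frame of TCONS_00034080 ends after 134 codons at a stop codon inside the retained intron of 70 bases. The matching stretch of PYL7, chr4:447758-447851 on the plus strand, is given for comparison with PYL8, with the intron ends and the stop codon in the intron in capitals.
PYL7 intron 2: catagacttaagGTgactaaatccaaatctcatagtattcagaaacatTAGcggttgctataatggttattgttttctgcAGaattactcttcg
The 12 exon bases before the intron are the same letters in PYL7 and PYL8. In PYL7 the retained intron itself holds the stop codon, and in PYL8 the stop codon follows the intron.

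The remaining assembled transcripts were minor. TCONS_00034553 keeps intron 1 of PYL7, ends after 81 codons and averaged 3.02 TPM in sme1-1 and 1.80 TPM in wild type (limma adjusted p = 0.126). TCONS_00048140 keeps intron 1 of PYL8, ends after 63 codons and averaged 0.691 TPM in sme1-1 and 1.70 TPM in wild type (limma adjusted p = 0.0622, and 0.0362 under median-of-ratios scaling). In both, the stop codon lies inside the retained intron, 344 and 443 bases before the last exon junction.

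No receptor passed the tests of splicing. Of the 2 receptors whose transcript usage could be tested, PYL7 had an adjusted p of 0.835 and PYL8 of 0.106 (limma diffSplice), and 1 of the 2 had an unadjusted p under 0.05, where 23.2% of 9382 tested genes were called. Of 4 retained introns tested (2 in PYL7 and 2 in PYL8), 0 were called with limma and 0 had an unadjusted p under 0.05, where 4.39% of 16029 tested introns were called, 3.57% with more retention in sme1-1 and 0.824% with less. The 704 introns called became 1777 with a pseudocount of 0.5 and 1106 with at least 5 TPM, but between 12 and 131 with any 1 library left out and 0 with the replicate number as a block (3810 at an unadjusted p under 0.05, limma), so this background is not firm. Intron 1 was retained at 6.27% in sme1-1 and 5.19% in wild type in PYL7, and at 2.09% in sme1-1 and 2.105% in wild type in PYL8. Intron 2 of PYL7 was retained at 12.7% in sme1-1 and 11.4% in wild type. A p that misses the threshold does not show that splicing was equal, and these percentages depend on how the deposited TPM divide reads among transcripts.

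**Figure D4:**
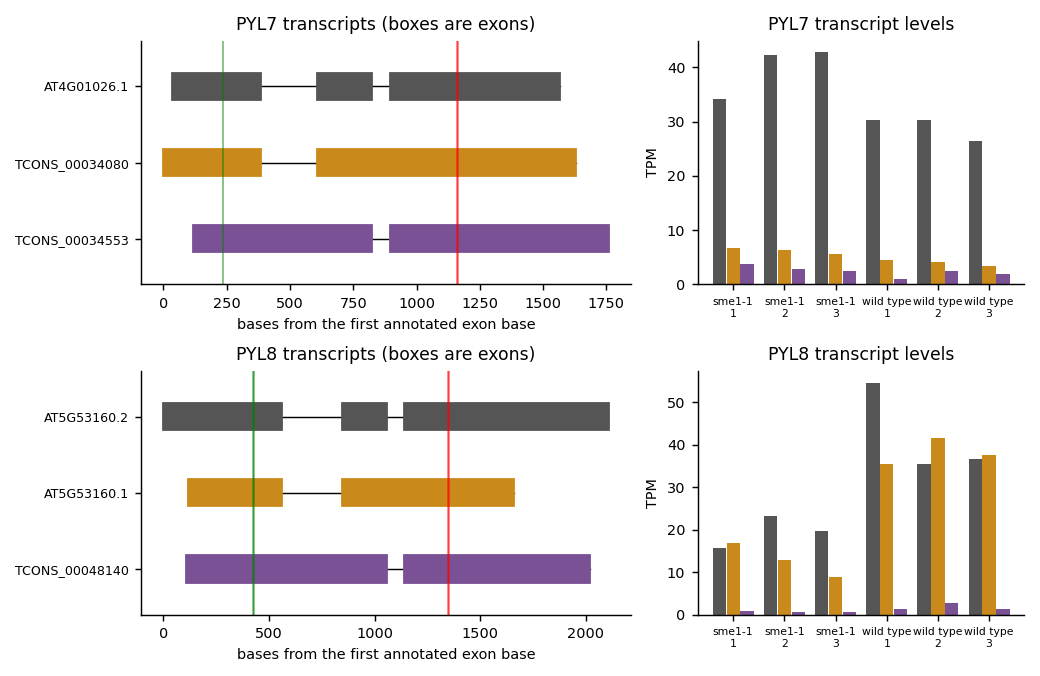
Exon models of the 3 PYL7 and the 3 PYL8 transcripts (boxes are exons, axis in bases from the first annotated exon base), with green and red lines at the start and stop codons of the full-length form, beside bars of the TPM of each transcript, in the same colours, in the 3 sme1-1 and the 3 wild-type libraries. All 3 PYL8 transcripts have lower means in sme1-1 and all 3 PYL7 transcripts have higher means.

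The windows of 250 bases upstream of the 9 gene starts were read for 3 short elements on both strands. ACGTG, the core of the ABA response element bound by ABF factors, was found upstream of PYR1 and PYL7, which is 2 of 9 members against 23.1% of 19969 tested genes. The longer form CACGTG, which contains ACGTG, was found upstream of PYL7, 1 of 9 members against 7.2% of genes. CCGAC, the core of the drought response element, was found in 0 of 9 members against 12.9% of genes. The PYL7 element lies in chr4:446896-446925 on the plus strand of TAIR10.1, from 82 to 53 bases upstream of the RefSeq gene start, with CACGTG in capitals.
PYL7 upstream window: gagagatatacaCACGTGcttaaagtcaac
The upstream windows of PYL4 (chr2:16049668-16049917) and PYL5 (chr5:1608738-1608987), both on the plus strand, are given because these 2 members moved most and together. Neither holds any of the 3 elements, so no letters are in capitals, and that says only that these letters are not in this window.
PYL4 upstream window: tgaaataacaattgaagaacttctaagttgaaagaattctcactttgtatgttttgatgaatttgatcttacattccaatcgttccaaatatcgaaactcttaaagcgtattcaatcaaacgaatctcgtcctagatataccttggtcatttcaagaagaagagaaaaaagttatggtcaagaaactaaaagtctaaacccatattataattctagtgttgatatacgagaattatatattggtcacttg
PYL5 upstream window: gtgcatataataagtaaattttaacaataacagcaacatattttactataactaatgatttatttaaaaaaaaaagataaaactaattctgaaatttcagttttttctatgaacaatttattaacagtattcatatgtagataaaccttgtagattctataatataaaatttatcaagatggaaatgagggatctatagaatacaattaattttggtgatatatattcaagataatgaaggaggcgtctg

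The clade A PP2Cs, the phosphatases that the receptors inhibit, rose throughout. Of 9 genes 8 were tested, and 8 rose and 0 fell on the deposited values and under both other scalings, where 47.3% of all tested genes were called higher on the deposited values, 32.0% under median-of-ratios scaling and 30.4% under quantile normalization. Their median log2 change was 2.102, where that of all tested genes was 0.22. The count and the median include HAI2 and HAI3, which averaged 0.475 and 0.0623 TPM in wild type. These genes passed the filter of a mean of at least 1 TPM only through sme1-1, so their rise was largely set by it. The other tested PP2C genes averaged above 1 TPM in both genotypes. ABI1 averaged 122.7 ± 17.6 TPM in sme1-1 and 27.6 ± 3.85 TPM in wild type, and ABI2 averaged 41.4 ± 5.67 TPM in sme1-1 and 8.09 ± 1.20 TPM in wild type (SD, n = 3 each). HAI2, a phosphatase gene known to respond strongly to ABA, averaged 21.0 ± 7.33 TPM in sme1-1 and 0.475 ± 0.045 TPM in wild type, a log2 change of 3.85. HAB2 averaged 50.9 ± 3.40 TPM in sme1-1 and 22.1 ± 0.357 TPM in wild type, a log2 change of 1.17.

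The SnRK2 kinases act downstream of the phosphatases. Of 10 SnRK2 genes, all tested, 4 rose and 1 fell on the deposited values, and 3 rose and 5 fell under median-of-ratios scaling, with a median log2 change of 0.10 on the deposited values. Shares of all tested genes were 47.3% higher and 20.0% lower on the deposited values and 32.0% higher and 35.3% lower under median-of-ratios scaling. Under quantile normalization 4 rose and 3 fell, where 30.4% of all tested genes were called higher and 36.3% lower. The count of SnRK2 genes called higher is therefore near the background. SnRK2.7 averaged 8.96 ± 2.37 TPM in sme1-1 and 1.42 ± 0.396 TPM in wild type, a log2 change of 2.03. SnRK2.9 averaged 15.2 ± 2.92 TPM in sme1-1 and 4.55 ± 1.30 TPM in wild type, and SnRK2.8 averaged 21.2 ± 2.09 TPM in sme1-1 and 12.7 ± 2.13 TPM in wild type. SnRK2.2, one of the 3 kinases most strongly activated by ABA, averaged 134.2 ± 5.14 TPM in sme1-1 and 165.7 ± 8.37 TPM in wild type, a log2 change of -0.30. SnRK2.6, the kinase of the guard cell response, averaged 31.2 TPM in sme1-1 and 35.4 TPM in wild type and was not called.

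Of 8 bZIP genes of the ABF and ABI5 group, 7 were tested, 5 rose and 0 fell on the deposited values (median log2 change 0.71), while median-of-ratios scaling gave 5 higher and 2 lower, and quantile normalization 4 higher and 1 lower. The shares of all tested genes called higher were 47.3%, 32.0% and 30.4% under these settings, and those called lower 20.0%, 35.3% and 36.3%. ABI5, 1 of the 5 called higher, averaged 2.15 TPM in sme1-1 and 0.795 TPM in wild type. It passed the filter of a mean of at least 1 TPM only through sme1-1. Its call was lost under quantile normalization (limma adjusted p = 0.23). ABF2 averaged 44.6 ± 6.43 TPM in sme1-1 and 10.01 ± 0.0574 TPM in wild type, a log2 change of 2.04. ABF3 averaged 130.8 ± 17.6 TPM in sme1-1 and 46.8 ± 3.72 TPM in wild type. ABF4 averaged 51.4 ± 4.28 TPM in sme1-1 and 30.9 ± 0.961 TPM in wild type, and ABF1 averaged 34.1 ± 1.54 TPM in sme1-1 and 21.5 ± 2.12 TPM in wild type.

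Among 6 channel and oxidase genes of the ABA output, 2 rose and 2 fell on the deposited values (median log2 change -0.08), where 47.3% of all tested genes were called higher and 20.0% lower. Under median-of-ratios scaling 2 rose and 3 fell, where 32.0% of all tested genes were called higher and 35.3% lower. Under quantile normalization 2 rose and 4 fell, where 30.4% of all tested genes were called higher and 36.3% lower. The oxidases RBOHF and RBOHD rose, RBOHF with 14.0 ± 1.22 TPM in sme1-1 and 6.00 ± 0.537 TPM in wild type and RBOHD with 28.4 ± 3.95 TPM in sme1-1 and 14.6 ± 4.93 TPM in wild type. The anion channel gene SLAH3 fell, with 21.8 ± 4.77 TPM in sme1-1 and 36.05 ± 8.77 TPM in wild type. The potassium channel gene KAT1 fell too, with 8.19 ± 0.328 TPM in sme1-1 and 11.5 ± 1.60 TPM in wild type.

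Other genes act on the receptor proteins themselves. Of 9 genes for receptor ubiquitination and turnover, 2 rose and 3 fell on the deposited values (median log2 change -0.13), so 5 of 9 were called, where 67.3% of all tested genes were. Under median-of-ratios scaling 2 rose and 6 fell, where 32.0% of all tested genes were called higher and 35.3% lower. Under quantile normalization 2 rose and 5 fell, where 30.4% of all tested genes were called higher and 36.3% lower. VPS23A, an ESCRT subunit that directs receptors to the vacuole, averaged 25.7 ± 1.97 TPM in sme1-1 and 56.9 ± 4.99 TPM in wild type, a log2 change of -1.12. COP10, a variant of a ubiquitin-conjugating enzyme, averaged 20.8 ± 0.752 TPM in sme1-1 and 29.4 ± 0.378 TPM in wild type. DET1, a partner of COP10, averaged 49.5 ± 1.91 TPM in sme1-1 and 30.0 ± 3.16 TPM in wild type, and the ubiquitin ligase gene RSL1 averaged 20.6 ± 2.04 TPM in sme1-1 and 13.7 ± 0.822 TPM in wild type.

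Of 7 genes for kinases that phosphorylate the receptors, 1 rose and 2 fell on the deposited values (median log2 change 0.04), so 3 of 7 were called, where 67.3% of all tested genes were. Under median-of-ratios scaling 0 rose and 5 fell, where 32.0% of all tested genes were called higher and 35.3% lower. Under quantile normalization 1 rose and 3 fell, where 30.4% of all tested genes were called higher and 36.3% lower. CEPR2 averaged 23.2 ± 1.62 TPM in sme1-1 and 46.7 ± 2.93 TPM in wild type, a log2 change of -0.98. CARK1 averaged 47.0 ± 2.05 TPM in sme1-1 and 59.8 ± 5.33 TPM in wild type. The rise of AEL3 (41.9 ± 1.66 TPM in sme1-1 and 33.5 ± 1.103 TPM in wild type) was lost after median-of-ratios scaling. After quantile normalization it passed, with a log2 change of 0.21 (limma adjusted p = 0.0132). AEL4 averaged 45.3 TPM in sme1-1 and 40.7 TPM in wild type and was not called.

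The CAR genes encode small C2 domain proteins that bring receptors to the plasma membrane. Of 10 genes 6 were tested, and 5 rose and 1 fell on the deposited values (median log2 change 1.40), and 4 rose and 1 fell under either other scaling. The shares of all tested genes called higher were 47.3% on the deposited values, 32.0% under median-of-ratios scaling and 30.4% under quantile normalization. Those called lower were 20.0%, 35.3% and 36.3% in the same order. CAR7 averaged 56.8 ± 7.00 TPM in sme1-1 and 12.96 ± 0.269 TPM in wild type, a log2 change of 2.04. CAR8 averaged 16.8 ± 1.26 TPM in sme1-1 and 2.71 ± 0.638 TPM in wild type, and CAR6 averaged 7.99 ± 1.24 TPM in sme1-1 and 1.42 ± 0.287 TPM in wild type. CAR1 averaged 44.3 ± 6.02 TPM in sme1-1 and 23.1 ± 1.25 TPM in wild type.

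Of the 3 ABA transporter genes, 2 rose and 1 fell on the deposited values, where 47.3% of all tested genes were called higher and 20.0% lower. Under either other scaling 0 rose and 1 fell, where 35.3% (median-of-ratios) and 36.3% (quantile) of all tested genes were called lower. NPF4.6 fell, with 33.0 ± 2.08 TPM in sme1-1 and 39.4 ± 0.734 TPM in wild type, a log2 change of -0.25 (limma adjusted p = 0.00992). The calls of ABCG25 (13.2 ± 0.976 TPM in sme1-1 and 10.5 ± 1.26 TPM in wild type) and ABCG40 (2.37 ± 1.03 TPM in sme1-1 and 0.855 ± 0.0985 TPM in wild type) as higher were lost under both other scalings. ABCG40 passed the filter of a mean of at least 1 TPM only through sme1-1.

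**Figure D5:**
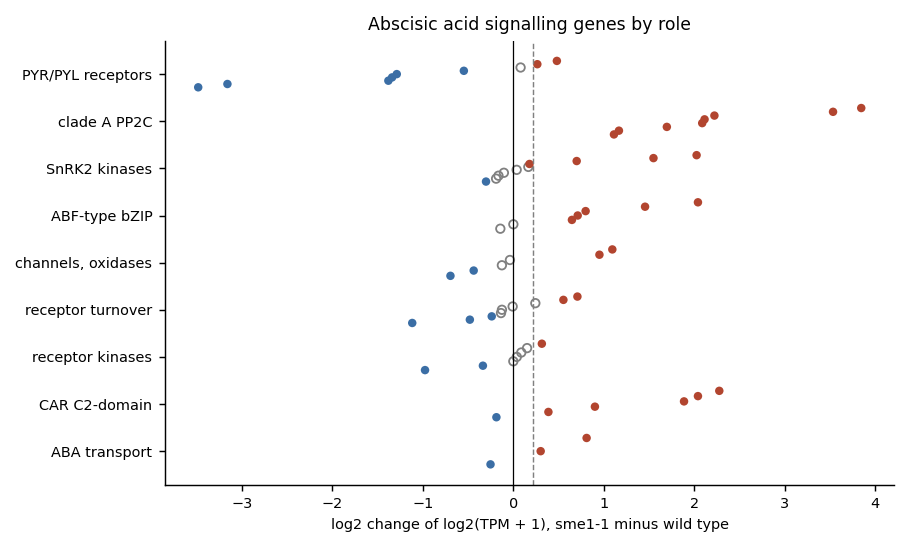
Log2 change (difference of log2(TPM + 1), sme1-1 minus wild type) of each tested gene in the receptor family and in the 8 other lists of the ABA pathway, 1 point per gene, red for called higher, blue for called lower and open grey for not called; the dashed line is the median of all tested genes at 0.22. All 8 tested clade A PP2C genes lie above the line, and 6 of the 9 receptors are blue.

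The genes whose levels followed a receptor most closely were found by Pearson correlation of log2(TPM + 1) over the 6 libraries, which share the difference between genotypes. For PYL4, the member with the largest fall, they were GALS1 (0.9991), the brassinosteroid receptor gene BRI1 (0.9991) and AT4G25940 (0.9988), and 267 genes reached a correlation of 0.99. GALS1 averaged 9.50 ± 2.32 TPM in sme1-1 and 38.3 ± 2.95 TPM in wild type, and BRI1 averaged 26.1 ± 2.86 TPM in sme1-1 and 52.1 ± 3.43 TPM in wild type. For PYL7, the member with the largest rise on the deposited values, they were PLDEPSILON (0.996), AT5G59670 (0.9959) and AT4G27745 (0.9959), and 18 genes reached 0.99. AT4G27745 had a log2 change of 0.12 and was not called (limma adjusted p = 0.072). PLDEPSILON averaged 2.28 ± 0.30 TPM in sme1-1 and 1.18 ± 0.17 TPM in wild type.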

How the data were processed

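RNA from 6 shoot libraries (3 sme1-1, 3 wild type) was read as 150 bp paired ends from a stranded mRNA kit, per the labels' protocols. The deposited values are TPM per gene and per transcript. STAR 2.5.2b and kallisto 0.43.0 are named in the submitters' processing notes, with no role stated there for either. The deposited TPM are labelled as kallisto expression values. TPM keep no depth, so no interval that needs counts is given. The deposited annotation lists 59448 Araport11 and 16761 scallop transcripts and names no build; sequences were read from RefSeq TAIR10.1, on which 99.44% of its 141522 nuclear introns had GT or GC at the start and AG at the end.

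The tests used limma 3.58.1 (R 4.3.3, trend) for genes and transcripts averaging 1 TPM or more, on log2(TPM + 1), sme1-1 over wild type, all 6 libraries, no covariate, Benjamini-Hochberg adjustment, threshold 0.05. These changes understate those of low genes. Usage was tested with diffSplice (Simes), and retention with limma on log2((R + 0.1)/(S + 0.1)), R and S being the TPM of transcripts that keep or splice the intron, where R + S averaged at least 2 TPM and the mean share R/(R + S) lay between 0.02 and 0.98. The fits were run on simulated data with the same scatter for every gene and few changed genes. That checks the code only. It does not speak for these results, where scatter differed between genes and 67.3% of tested genes were called. Alternatives were another pseudocount, filter and scaling, a replicate block and leaving out each library.

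The members and lists were chosen with earlier results of these data known. Named were all members and their transcripts, the rest of the family, SME1, up to 4 genes per list with the smallest adjusted p and the 3 genes most correlated with the members of largest rise and fall. SLAC1, named as background, and SnRK2.6 were named outside this rule, SnRK2.6 after its values were seen.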

Additional observations from a re-analysis of the deposited data

How the results depend on the processing

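The 6 receptor falls passed under every alternative in which they were tested. The count of receptors called higher (2) was 1 with a mean of at least 5 TPM (PYL2 was then not tested), 0 after median-of-ratios scaling (0 also at an unadjusted p under 0.05), 1 after quantile normalization, 1 with a replicate block, and 1 to 2 with 1 library left out. Reversed were PYL2 after quantile normalization (-0.26) and PYL9, which was never called (-0.18 after median-of-ratios scaling, -0.10 after quantile normalization, and -0.01 to 0.14 with 1 library left out, where it was -0.0102 without sme1-1 replicate 1 and -0.00255 without wild-type replicate 3). The PYL9 transcript AT1G01360.1 was at -0.14 after median-of-ratios scaling and had the same values without those libraries. Retention of PYL7 intron 1 was at -0.11 (range -0.11 to 0.58) and of PYL8 intron 1 at -0.0698 (range -0.0698 to 0.26) without wild-type replicate 1, neither called.

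Of all genes, 9505 were higher and 4024 lower on the deposited values (70.3% higher). Median-of-ratios scaling gave 7103 lower (47.5% higher) and quantile normalization gave 6116 higher and 7293 lower (45.6% higher). Transcripts called higher (11477) were 6905 with a mean of at least 5 TPM, and transcripts called lower (5691) were 8666 after median-of-ratios scaling. Receptor transcripts called higher (2) were 0 after median-of-ratios scaling (1 at an unadjusted p under 0.05, limma) and 0 to 2 with 1 library left out. The PYL6 transcript missed the threshold at that level under a replicate block and without sme1-1 replicate 1 or 3 or wild-type replicate 1 (limma adjusted p up to 0.063). Genes called for usage (2176) were 872 with a mean of at least 5 TPM and 1326 to 1911 with 1 library left out. Introns called (704) were 1777 with a pseudocount of 0.5, 1106 with R + S of at least 5 TPM, 0 with a replicate block (3810 at an unadjusted p under 0.05, limma) and 12 to 131 with 1 library left out, so the retention background rests on few libraries. The cause of these shifts was not tested.

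Same-numbered libraries deviated together by correlations of 0.017, 0.056 and 0.032, and differently numbered ones by -0.045 to 0.005. Each library thus correlated best with its own number. The labels state no pairing, and correlations this small do not decide whether the numbers pair the samples. Depth is unknown, which limits the low levels of PYL2 and PYL6 most. PYL8 intron 1 and TCONS_00048140 could not be fitted in every setting because they fell under the filter.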
